A study of Mus musculus with 12 samples.

Results

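Microbial pattern receptors and their adaptors were followed in wounded skin of diabetic mice as a set of 39 genes, chosen by name, among 29956 named genes in the table. They comprise Toll-like, NOD-like, C-type lectin and scavenger receptors, the adaptors and kinases below them, and 4 feedback regulators. All 39 were in the table, had counts above 0 in all 12 libraries and passed the filter on low counts. Every mouse was B6.BKS(D)-Leprdb/db, a strain without a working leptin receptor that becomes obese and diabetic, so the vehicle wounds are diabetic too and no healthy skin enters a comparison. Full-thickness punch wounds on the back were given the Gram-negative bacterium Alcaligenes faecalis or the Gram-positive skin pathogen Staphylococcus aureus, in PBS and at one dose for both, or a vehicle of PBS with 10% glycerol. Glycerol is named for the vehicle only, so its part in comparisons with vehicle cannot be told apart from that of the bacteria. Skin was taken on day 3 from 4 mice per group, and its RNA was sequenced after ribosomal RNA removal. Because the bacteria differ in cell wall, receptors for Gram-negative and for Gram-positive products can be set side by side.

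Pattern recognition receptors bind molecules that microbes share. TLR4, with its partner MD-2 (Ly96) and the co-receptor CD14, binds lipopolysaccharide of the Gram-negative outer membrane. TLR2 pairs with TLR1 or TLR6 and binds bacterial lipoproteins, and it is the main Toll-like receptor for staphylococci, although Gram-negative bacteria carry lipoproteins too. Most Toll-like receptors signal through the adaptor MyD88 and the IRAK kinases to TRAF6 and NF-kB, which in turn induces inhibitors such as A20 (Tnfaip3), IkB-alpha (Nfkbia) and IRAK-M (Irak3). In skin many of these genes are expressed mainly by neutrophils, monocytes and macrophages, and others more broadly, keratinocytes included.

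Libraries held 38.4M to 71.3M estimated counts, and levels are CPM, counts scaled to a library of 1M. Values of a group are listed for replicates 1 to 4. Vehicle replicate 3 stood apart: its 8 adipocyte markers summed to 11807 CPM, against 2277 to 3204 CPM in the other vehicle libraries. It was the lowest vehicle library for 31 of the 39 members, and for the macrophage and neutrophil marker sums given next. Members shared low or high libraries in the other groups too. A. faecalis replicate 1 was the lowest of its group for 28 members, and S. aureus replicate 3 the highest of its group for 28. The shares of all genes were not counted. The 12 macrophage markers, all detected, summed to 6438 to 8815 CPM with A. faecalis, 3980.0 to 5020.3 CPM with S. aureus and 4629.8 to 7680.1 CPM with vehicle. The 12 neutrophil markers summed to 1788 to 4240.2 CPM with A. faecalis, 9486 to 15046 CPM with S. aureus and 719.8 to 8929 CPM with vehicle. Between the bacteria these sums did not overlap, in opposite directions. None of these 24 markers was at 0 throughout a group. The 7 basal keratinocyte markers, as skin should hold, summed to 720.1 to 1184 CPM with A. faecalis, 931 to 2376 CPM with S. aureus and 1209 to 1941 CPM with vehicle. Sums without overlap between the bacteria were also found for 7 endothelial markers (936 to 1321 CPM with A. faecalis, 1353 to 1501 CPM with S. aureus) and for T and NK cell markers (21.1 to 33.0 CPM with A. faecalis, 14.0 to 20.9 CPM with S. aureus). The part of these cell types in the results below was not tested except where a value per marker is given.

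Ranked per length of transcript, the members spanned a wide range. Levels between genes are compared as CPM per kb of the longest protein-coding transcript, as the median of 12 libraries. Nfkbia, the inhibitor that holds NF-kB in the cytoplasm, was the most abundant at 291 CPM per kb, followed by Cd14 at 214 and by Clec4e, the receptor Mincle, at 182. Tlr13, a mouse receptor for bacterial ribosomal RNA, was the highest Toll-like receptor at 66.9, ahead of Tlr2 at 42.8 and Tlr4 at 35.7. The ranges of Tlr2 and Tlr4 per kb overlapped within every group. At the low end, the flagellin receptor Tlr5 was at 5.55, Tlr6 at 4.95, Nlrc4 at 3.30 and Tlr3 at 1.88 CPM per kb.

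**Figure D1:**
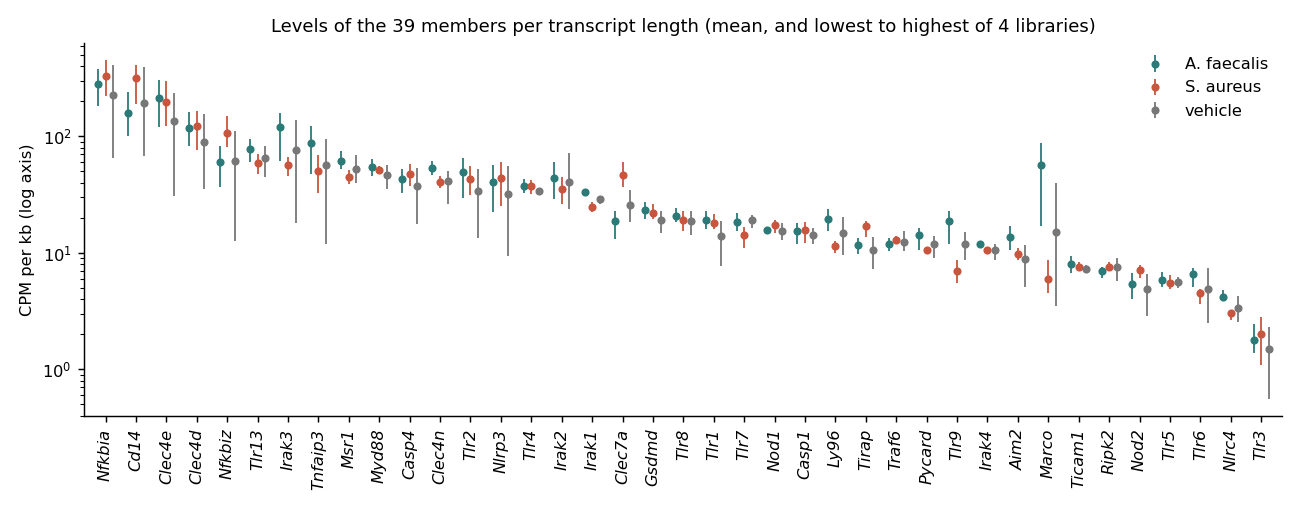
Level of each of the 39 members as CPM per kb of transcript (log axis), ordered by the median of 12 libraries, with points for the mean of 4 libraries and lines for the lowest to the highest. Nfkbia and Cd14 lie at the high end and Tlr3 at the low end, and the vehicle line is the longest of the 3 for 31 members; Marco has means of 56.6 CPM per kb with A. faecalis, 5.94 with S. aureus and 15.0 with vehicle.

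Vehicle wounds differed from each other more than treated wounds did, with replicate 3 at the low end. The highest library exceeded the lowest by over 3-fold for 1 member with A. faecalis (Marco), for 0 with S. aureus and for 12 with vehicle, of which 4 remained without vehicle replicate 3, a setting added after the data were seen. In 31 of the 39 members the range was widest in vehicle wounds. In vehicle wounds it was 8.72-fold for Nfkbiz, 7.96-fold for Tnfaip3 and 7.68-fold for Clec4e, and without replicate 3 it was 2.96-fold, 2.97-fold and 2.87-fold for these genes in turn. By contrast it was 1.11-fold for Tlr4, 1.16-fold for Irak1 and 1.17-fold for Ticam1.

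The members were called mainly between the bacteria, and hardly against vehicle. A gene was called when its p, adjusted over all 18218 genes tested, was under 0.05 in the quasi-likelihood test of edgeR; every adjusted p below is of this kind unless another tool is named. With A. faecalis against vehicle none of the 39 members was called by edgeR, DESeq2 or limma-voom, where edgeR called 0.011% of all genes (0.00549% higher, 0.00549% lower); 5 members had an unadjusted p under 0.05, against 7.68% of all genes. With S. aureus against vehicle 1 member was called, and it was higher, where edgeR called 6.84% of all genes, 3.87% higher. Between A. faecalis and S. aureus 6 members were called, 5 higher and 1 lower with A. faecalis, where 12.7% of all genes were called, 5.06% higher and 7.62% lower. Of the 39 members that is 15.4%, near the share of all genes. The groups did not overlap for 1 member between A. faecalis and vehicle (1 higher, 0 lower; all genes 1.49% and 2.56%), for 3 between S. aureus and vehicle (2 higher, 1 lower; all genes 7.56% and 7.57%) and for 11 between the bacteria (9 higher and 2 lower with A. faecalis; all genes 11.5% and 11.8%).

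Of the 39 log2 fold changes of A. faecalis against vehicle, 33 were above 0, where 43.8% of all genes were, and their median was 0.23 against -0.03 for all genes. Without vehicle replicate 3 the count was 30 and the median 0.12, against 0.01 for all genes. For S. aureus against vehicle 24 were above 0 (all genes 45.3%; member median 0.06), and 20 without that library. Between the bacteria 25 were above 0 (all genes 52.7%; member median 0.09). The macrophage marker sums given above moved in the same direction as the A. faecalis values, and their part in it was not tested. In bulk tissue fewer cells of a type and less RNA per cell cannot be told apart.

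**Figure D2:**
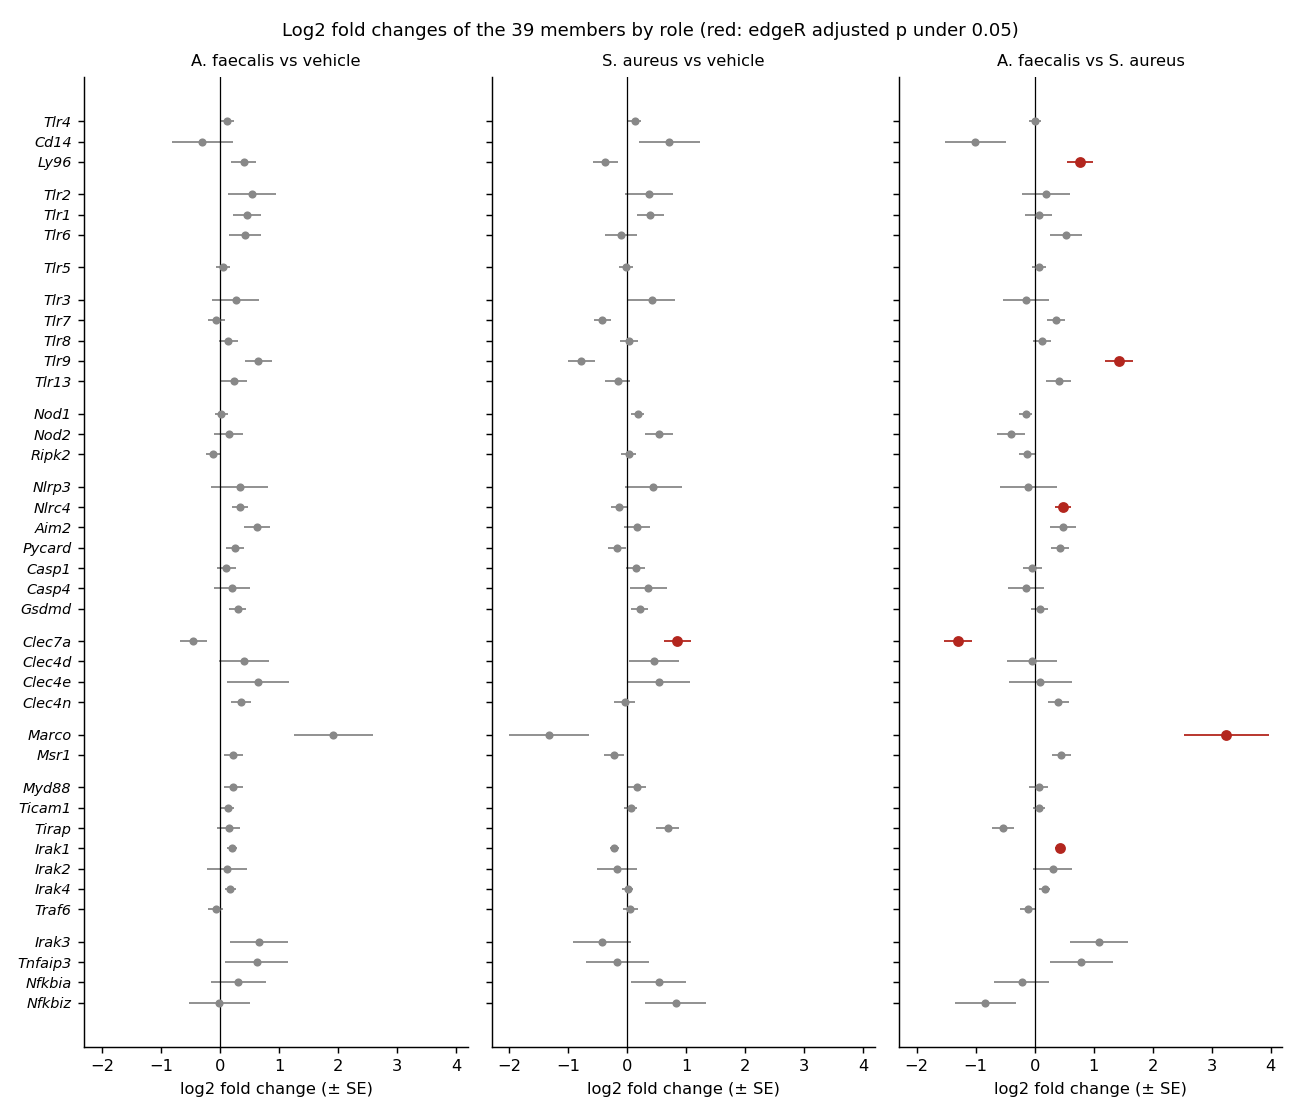
Log2 fold changes (horizontal axis, points with SE) of the 39 members in the 3 comparisons, grouped by role from the TLR4 complex at the top to the feedback regulators at the bottom; red points were called by edgeR. No point is red for A. faecalis against vehicle, 1 is for S. aureus against vehicle (Clec7a) and 6 are for A. faecalis against S. aureus.

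Receptors for Gram-negative products did not move as a group. Tlr4, which signals for lipopolysaccharide, was at 152, 149, 133 and 176 CPM with A. faecalis, 143, 131, 161 and 172 CPM with S. aureus and 134, 147, 133 and 144 CPM with vehicle. These 12 values overlapped throughout, and the difference between the bacteria was 0.00 on the log2 scale (SE 0.10, edgeR adjusted p = 0.988). Ly96, the MD-2 subunit that holds the lipid, was at 9.67, 15.0, 11.3 and 13.8 CPM with A. faecalis, 7.91, 6.25, 7.82 and 7.16 CPM with S. aureus and 8.14, 10.8, 6.04 and 12.8 CPM with vehicle. All A. faecalis libraries lay above all S. aureus libraries, and Ly96 was higher with A. faecalis (log2 fold change 0.77 ± 0.22 SE, edgeR adjusted p = 0.0366). Cd14, which hands lipopolysaccharide and lipoproteins to the receptors, was at 166, 391, 177 and 305 CPM with A. faecalis, 311, 592, 664 and 518 CPM with S. aureus and 112, 401, 124 and 639 CPM with vehicle. With S. aureus it ranged from 311 to 664 CPM, largely within the wide range of the vehicle wounds, and it was not called between the bacteria (log2 fold change -1.01 ± 0.52 SE, edgeR adjusted p = 0.233) or for S. aureus against vehicle (log2 fold change 0.71 ± 0.52 SE, edgeR adjusted p = 0.411).

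Cytosolic sensors of Gram-negative products showed 1 call. Nlrc4, the inflammasome scaffold that responds to flagellin and secretion system proteins through NAIP receptors, was at 18.9, 22.5, 18.6 and 19.7 CPM with A. faecalis, 13.9, 15.1, 15.4 and 12.6 CPM with S. aureus and 15.0, 20.2, 12.1 and 15.8 CPM with vehicle. The A. faecalis values lay above all S. aureus values, and Nlrc4 was higher with A. faecalis (log2 fold change 0.48 ± 0.14 SE, edgeR adjusted p = 0.0425). Casp4, the mouse caspase-11 that binds cytosolic lipopolysaccharide, was at 49.8, 74.8, 47.1 and 74.8 CPM with A. faecalis, 66.6, 70.1, 83.2 and 53.4 CPM with S. aureus and 39.5, 71.7, 25.4 and 77.3 CPM with vehicle, with overlap among all groups (log2 fold change -0.15 ± 0.31 SE, edgeR adjusted p = 0.792 between the bacteria). Nod1, which detects diaminopimelic acid peptides of mostly Gram-negative peptidoglycan, was at 68.8, 68.6, 62.9 and 70.0 CPM with A. faecalis, 82.3, 74.4, 80.4 and 63.6 CPM with S. aureus and 64.2, 68.9, 77.5 and 55.8 CPM with vehicle. Tlr5, the cell-surface flagellin receptor, was at 25.9, 19.6, 23.9 and 19.9 CPM with A. faecalis, 24.6, 18.7, 19.6 and 22.0 CPM with S. aureus and 23.5, 23.2, 19.0 and 20.4 CPM with vehicle. Both varied little in any group, and neither was called in any comparison (smallest adjusted p 0.321). Of the 7 receptors for Gram-negative products, 0 were called for A. faecalis against vehicle, 0 for S. aureus against vehicle and 2 between the bacteria (28.6%, all genes 12.7%), with median log2 fold changes of 0.13, 0.12 and 0.00.

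The calls of Ly96 and Nlrc4 depended on single libraries. Ly96 lost its call (adjusted p up to 0.0955) when any 1 of A. faecalis replicates 2, 3 or 4 or any 1 S. aureus library was left out, and with the replicate number as a block it was at adjusted p = 0.0503. Nlrc4 lost it (up to 0.108) without vehicle replicate 1, any 1 A. faecalis library or any 1 S. aureus library.

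Receptors for lipoproteins, the main staphylococcal ligands, were not called in any comparison. Tlr2 was at 88.4, 189.7, 118 and 196 CPM with A. faecalis, 95.0, 135, 167 and 123 CPM with S. aureus and 61.2, 146, 40.4 and 157 CPM with vehicle. The lowest of the 12 values was vehicle replicate 3, and the 3 groups overlapped (log2 fold changes of 0.55 at adjusted p = 0.741 for A. faecalis against vehicle, 0.36 at adjusted p = 0.61 for S. aureus against vehicle and 0.19 at adjusted p = 0.801 between the bacteria). Tlr1, the partner of TLR2 for triacylated lipoproteins, was at 48.8, 69.3, 50.8 and 61.2 CPM with A. faecalis, 48.2, 52.4, 65.5 and 53.2 CPM with S. aureus and 37.3, 56.7, 23.3 and 50.5 CPM with vehicle. Tlr6, the partner for diacylated lipoproteins, was at 18.6, 27.3, 22.6 and 27.5 CPM with A. faecalis, 13.5, 17.3, 17.9 and 17.6 CPM with S. aureus and 14.5, 20.6, 9.26 and 27.2 CPM with vehicle. The A. faecalis values of Tlr6 lay above all S. aureus values without a call (log2 fold change 0.53 ± 0.27 SE, edgeR adjusted p = 0.219), a separation seen in 11.5% of all genes in this direction. Tlr1 and Tlr6 are close paralogs, so the division of shared reads between them is uncertain. The medians of the 3 genes were 0.46, 0.36 and 0.19 in the 3 comparisons, in the order given for the Gram-negative group; a difference between the 2 groups of receptors was not tested.

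Among receptors of nucleic acids, Tlr9 differed between the bacteria. Tlr9, which binds unmethylated CpG DNA in endosomes, was at 41.3, 79.1, 61.3 and 77.5 CPM with A. faecalis, 29.9, 19.7, 27.7 and 19.1 CPM with S. aureus and 39.5, 52.1, 30.0 and 43.7 CPM with vehicle. All A. faecalis values lay above all S. aureus values, and the S. aureus values also lay below all vehicle values by a small margin. Tlr9 was higher with A. faecalis than with S. aureus (log2 fold change 1.43 ± 0.23 SE, edgeR adjusted p = 0.00344), a 2.69-fold difference. Against vehicle its log2 fold changes were 0.65 at adjusted p = 0.565 with A. faecalis and -0.78 at adjusted p = 0.0632 with S. aureus, neither called by edgeR; the second was called by DESeq2 and when vehicle replicate 3 (adjusted p = 0.0441) or A. faecalis replicate 1 was left out.

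The other endosomal receptors were not called. Tlr7, a receptor for single-stranded RNA, was at 60.5 to 85.5 CPM with A. faecalis, 42.5 to 65.3 CPM with S. aureus and 63.7 to 82.3 CPM with vehicle (log2 fold change 0.36 ± 0.15 SE, edgeR adjusted p = 0.127 between the bacteria). Tlr8, its neighbour and paralog, was at 63.1 to 83.5 CPM with A. faecalis, 53.1 to 78.2 CPM with S. aureus and 48.8 to 79.0 CPM with vehicle. Tlr13 was at 244 to 382 CPM with A. faecalis, 193 to 283 CPM with S. aureus and 179.7 to 337 CPM with vehicle, and Tlr3, the receptor for double-stranded RNA, at 6.08 to 10.9 CPM with A. faecalis, 4.78 to 12.3 CPM with S. aureus and 2.46 to 10.2 CPM with vehicle. Aim2, a cytosolic DNA sensor that forms an inflammasome, had the smallest unadjusted p of the members for A. faecalis against vehicle. It was at 29.7, 40.1, 36.5 and 48.3 CPM with A. faecalis, 24.4, 28.5, 26.9 and 31.2 CPM with S. aureus and 24.6, 33.2, 14.3 and 27.5 CPM with vehicle. The A. faecalis and vehicle values of Aim2 overlapped, and its adjusted p was 0.551 (log2 fold change 0.63). Nod2, which detects the muramyl dipeptide of both kinds of cell wall, was at 18.9 to 31.9 CPM with A. faecalis, 28.4 to 37.4 CPM with S. aureus and 13.5 to 31.1 CPM with vehicle, and the kinase Ripk2 below both NOD receptors at 16.3 to 20.5 CPM with A. faecalis, 18.7 to 22.4 CPM with S. aureus and 15.5 to 24.5 CPM with vehicle; neither was called.

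The remaining inflammasome genes were not called between any groups. Nlrp3, the inflammasome sensor induced by NF-kB, was at 90.2 to 228 CPM with A. faecalis, 101 to 241 CPM with S. aureus and 38.0 to 224 CPM with vehicle. Its vehicle range overlapped both others widely. The adaptor Pycard was at 40.2 to 62.2 CPM with A. faecalis, 37.2 to 41.7 CPM with S. aureus and 34.1 to 52.5 CPM with vehicle, Casp1, the protease that matures interleukin-1, at 17.6 to 26.8 CPM with A. faecalis, 18.0 to 27.3 CPM with S. aureus and 17.9 to 24.5 CPM with vehicle, and Gsdmd, the pore-forming gasdermin D, at 35.1 to 48.7 CPM with A. faecalis, 34.9 to 46.9 CPM with S. aureus and 26.6 to 40.7 CPM with vehicle. Log2 fold changes of A. faecalis against vehicle were above 0 for all 7 inflammasome members, as for 33 of the 39 members and 43.8% of all genes, with a median of 0.30. None of the 7 was called by edgeR, and without vehicle replicate 3 Casp4 was at -0.02.

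A scavenger receptor and a lectin receptor differed between the bacteria in opposite directions, Marco by the largest fold of the 39 members. Marco, a scavenger receptor with which macrophages take up bacteria, was at 32.5, 122, 114 and 168 CPM with A. faecalis, 10.0, 10.2, 8.76 and 16.8 CPM with S. aureus and 15.1, 76.4, 6.70 and 17.0 CPM with vehicle. Its A. faecalis values lay above all S. aureus values, while vehicle replicate 2 stood above 1 of the A. faecalis libraries. Marco was 9.51-fold higher with A. faecalis than with S. aureus (log2 fold change 3.25 ± 0.71 SE, edgeR adjusted p = 0.0133). Against vehicle its log2 fold changes were 1.92 with A. faecalis (SE 0.67, adjusted p = 0.56) and -1.33 with S. aureus (SE 0.67, adjusted p = 0.228), neither called.

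Clec7a, the receptor Dectin-1 for beta-glucans of fungal walls, moved the other way. It was at 52.4, 51.5, 29.7 and 37.4 CPM with A. faecalis, 113, 83.4, 138 and 88.6 CPM with S. aureus and 42.1, 78.1, 55.6 and 58.7 CPM with vehicle. The S. aureus values lay above every value of the other groups, and the vehicle and A. faecalis values overlapped. Clec7a was lower with A. faecalis than with S. aureus (log2 fold change -1.30 ± 0.23 SE, edgeR adjusted p = 0.00519), a 2.47-fold difference. It was also the only member called for S. aureus against vehicle (log2 fold change 0.85 ± 0.23 SE, edgeR adjusted p = 0.0491). That call was lost without any 1 of vehicle replicates 1, 3 or 4, A. faecalis replicates 2 or 4, or the 4 S. aureus libraries (adjusted p up to 0.144), while the call between the bacteria held without each of the 12 libraries (adjusted p up to 0.0195).

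**Figure D3:**
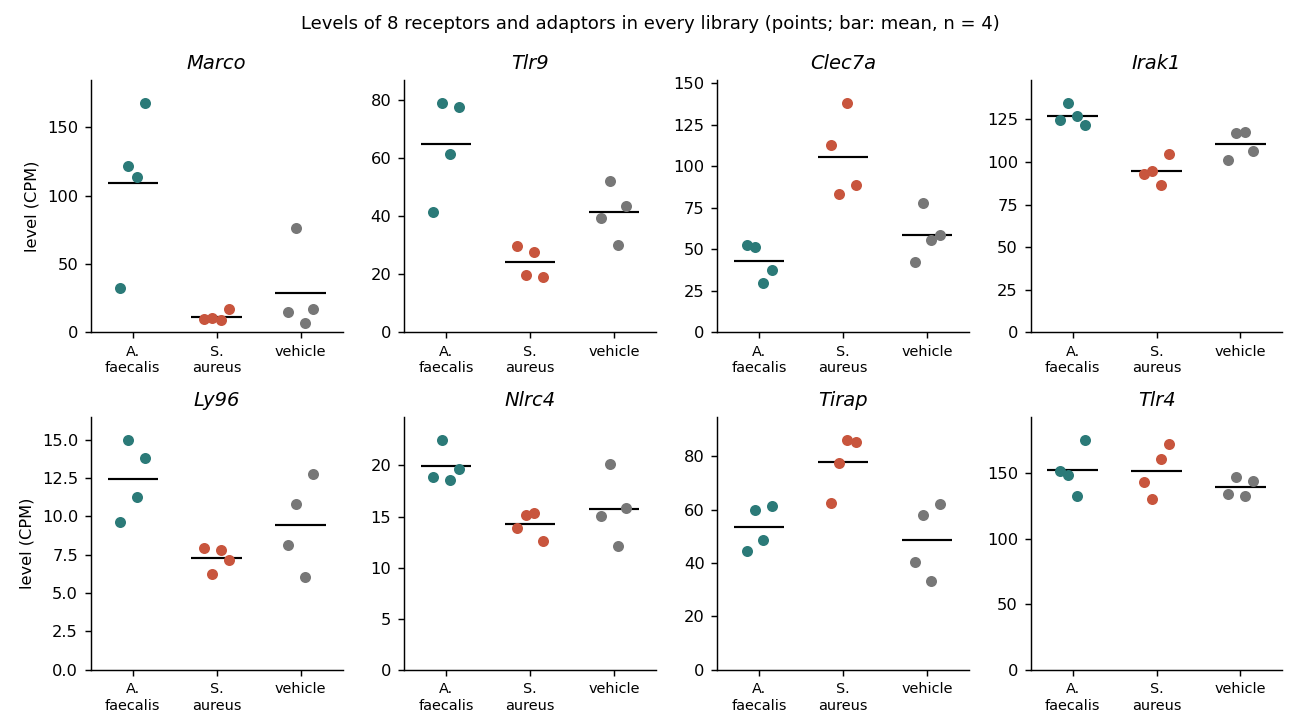
Levels in CPM of 8 members in every library (points) with the mean of 4 libraries (bars), for A. faecalis, S. aureus and vehicle from left to right, each axis starting at 0. Marco, Tlr9, Irak1, Ly96 and Nlrc4 have A. faecalis points above all S. aureus points, Clec7a and Tirap have them below, and Tlr4 overlaps throughout.

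The promoter windows of the 3 receptors that differed most between the bacteria are shown because 2 of them were higher and 1 was lower with A. faecalis. Sequences are RefSeq windows of build GRCm38.p6, from 250 bases before to 50 after a gene's start, 5′ to 3′ on the gene's strand. Capitals mark matches on either strand to GAGGAA, a core bound by PU.1, a transcription factor of myeloid cells.
Marco (chr1:120504975-120505274, minus strand): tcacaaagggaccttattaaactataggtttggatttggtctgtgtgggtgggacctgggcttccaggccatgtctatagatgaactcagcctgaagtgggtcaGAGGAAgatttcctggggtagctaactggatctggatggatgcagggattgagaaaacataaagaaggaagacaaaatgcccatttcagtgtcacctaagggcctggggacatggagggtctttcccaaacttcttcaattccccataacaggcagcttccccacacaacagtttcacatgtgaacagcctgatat
Tlr9 (chr9:106222348-106222647, plus strand): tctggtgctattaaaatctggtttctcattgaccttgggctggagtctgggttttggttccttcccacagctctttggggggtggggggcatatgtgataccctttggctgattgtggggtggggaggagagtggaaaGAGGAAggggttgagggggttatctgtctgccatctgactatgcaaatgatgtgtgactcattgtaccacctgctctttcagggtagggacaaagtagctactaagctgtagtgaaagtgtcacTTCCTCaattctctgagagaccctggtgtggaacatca
Clec7a (chr6:129472730-129473029, minus strand): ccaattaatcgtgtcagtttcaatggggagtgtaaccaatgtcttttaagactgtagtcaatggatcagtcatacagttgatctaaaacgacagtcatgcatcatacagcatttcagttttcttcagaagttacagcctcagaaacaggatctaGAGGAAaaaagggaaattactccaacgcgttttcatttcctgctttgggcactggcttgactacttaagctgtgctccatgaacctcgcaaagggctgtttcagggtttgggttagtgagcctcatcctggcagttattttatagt
The match began 146 bases before the start in Marco and 96 before it in Clec7a, while Tlr9 held matches at 112 before and 13 after it. All 3 windows thus held GAGGAA whichever way the gene moved. It was in 16 of 40 windows of the 30 members that matched the table (40%), and in 28.3% of 32851 windows of all genes. The NF-kB motif GGGANNNNCC was in 15 of the 40 member windows (37.5%) and in 20.7% of all, Marco's among them, with no overlap with its GAGGAA match. TGANTCA, bound by AP-1, was in 2 of 40 (5%) and 7.81% of all, and TTNNGCAA, bound by C/EBP factors, in 9 of 40 (22.5%) and 10.8% of all. Tlr9 held its TGANTCA match 58 bases before the start. Clec7a has a pair of nearly equal windows in the table, of which the first is shown. Members with several windows were counted once per window, and a match is a run of letters, not evidence of binding.

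The other lectin and scavenger receptors were not called. Clec4e (Mincle), which binds mycobacterial and other glycolipids, was at 302 to 769 CPM with A. faecalis, 306 to 742 CPM with S. aureus and 77.7 to 596 CPM with vehicle. Clec4d, its partner, was at 109 to 213 CPM with A. faecalis, 101 to 216 CPM with S. aureus and 47.1 to 204 CPM with vehicle, and Clec4n, the mannan receptor Dectin-2, at 57.6 to 75.8 CPM with A. faecalis, 43.8 to 56.0 CPM with S. aureus and 32.1 to 61.8 CPM with vehicle. For Clec4d and Clec4e the ranges of the bacteria overlapped widely and the vehicle range reached lower, with vehicle replicates 1 and 3 below every treated library, whereas all A. faecalis values of Clec4n lay above all S. aureus values (log2 fold change 0.40 ± 0.18 SE, edgeR adjusted p = 0.157). Msr1, the class A scavenger receptor of macrophages, was at 191 to 273 CPM with A. faecalis, 142 to 187 CPM with S. aureus and 144 to 251 CPM with vehicle, again without overlap between the bacteria (log2 fold change 0.45 ± 0.17 SE, edgeR adjusted p = 0.0937).

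Of the 7 adaptors and kinases, Irak1, Irak4 and Tirap did not overlap between the bacteria, where 23.3% of all genes did not. Irak1 alone was called there (14.3%, all genes 12.7%). Irak1, the kinase recruited after MyD88, was at 125, 135, 127 and 122 CPM with A. faecalis, 92.9, 94.9, 86.5 and 105 CPM with S. aureus and 101, 117, 118 and 106 CPM with vehicle. Every A. faecalis value lay above all values of both other groups, the only member with such a separation from vehicle, a count of 1 in 39 where 1.49% of all genes were higher and 4.05% separated in either direction. Irak1 was higher with A. faecalis than with S. aureus (log2 fold change 0.42 ± 0.08 SE, edgeR adjusted p = 0.00611), a 1.34-fold difference. Tirap, which brings MyD88 to TLR2 and TLR4 at the membrane, was at 44.6, 60.0, 48.5 and 61.2 CPM with A. faecalis, 62.4, 77.4, 86.0 and 85.1 CPM with S. aureus and 40.2, 58.0, 33.3 and 62.2 CPM with vehicle. Its S. aureus values lay above all others, but it passed the edgeR test neither against vehicle (log2 fold change 0.68 ± 0.19 SE, edgeR adjusted p = 0.0553) nor between the bacteria (log2 fold change -0.54 ± 0.19 SE, edgeR adjusted p = 0.0915). The first of these was called by DESeq2, by limma-voom, with the replicate block, and without vehicle replicates 2 or 4 or S. aureus replicate 1. The second was called by DESeq2, with the replicate block, with only the 2 groups compared, and without vehicle replicate 3.

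Myd88, the adaptor of nearly all Toll-like receptors, was at 89.7 to 126 CPM with A. faecalis, 92.6 to 109 CPM with S. aureus and 69.5 to 112 CPM with vehicle. Ticam1 (TRIF), the adaptor of TLR3 and TLR4 towards interferon, was at 19.9 to 28.2 CPM with A. faecalis, 20.9 to 25.1 CPM with S. aureus and 20.1 to 23.6 CPM with vehicle. Irak4, the first kinase of the complex, was at 38.3 to 43.1 CPM with A. faecalis, 35.0 to 37.6 CPM with S. aureus and 29.7 to 40.8 CPM with vehicle, without overlap between the bacteria (log2 fold change 0.17 ± 0.09 SE, edgeR adjusted p = 0.259). Irak2, a kinase of the same complex, was at 93.0 to 192 CPM with A. faecalis, 84.3 to 142 CPM with S. aureus and 76.1 to 228 CPM with vehicle. The ubiquitin ligase Traf6 was at 63.6 to 82.9 CPM with A. faecalis, 73.6 to 85.8 CPM with S. aureus and 63.5 to 94.9 CPM with vehicle. None of these 5 was called in any comparison by edgeR.

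The 6 called members were set against the macrophage markers, since these also differed between the bacteria. Of the 12 markers, 6 were called higher and 0 lower with A. faecalis than with S. aureus. Of the 12 neutrophil markers 0 were called higher and 6 lower. That is 50% of each list, against 12.7% of all genes. Log2 fold changes were above 0 for 11 macrophage markers and below 0 for 1, and below 0 for all 12 neutrophil markers. A summed level mostly follows its most abundant markers. Per 1000 CPM of summed macrophage markers, Marco was at 5.04 to 19.9 CPM in A. faecalis wounds and 1.75 to 3.94 CPM in S. aureus wounds. On this scale Tlr9 was at 6.42 to 9.17 with A. faecalis and 4.49 to 6.05 with S. aureus, and Clec7a at 3.96 to 8.14 with A. faecalis and 20.8 to 27.5 with S. aureus. These 3 receptors did not overlap between the bacteria on this scale. The larger sum with A. faecalis by itself lowers the ratio there, and 20 of 39 members lay lower without overlap, Clec7a among them and also Tlr4, which was level in CPM (16.9 to 23.6 with A. faecalis and 29.0 to 40.5 with S. aureus). Marco and Tlr9 were the 2 of 39 that lay higher. The share of all genes without overlap on this scale was not counted, so these counts have no background. Ly96 was at 1.5 to 1.70 with A. faecalis and 1.56 to 1.68 with S. aureus, Nlrc4 at 2.33 to 2.94 with A. faecalis and 2.82 to 3.81 with S. aureus, and Irak1 at 14.4 to 19.4 with A. faecalis and 17.2 to 24.6 with S. aureus. These 3 overlapped on this scale, where the larger sum with A. faecalis lowers their ratios too. The A. faecalis mean over the S. aureus mean was 0.99 for Ly96, 0.81 for Nlrc4 and 0.78 for Irak1. Whether the calls of these 3 follow the macrophage markers was not tested. Per 1000 CPM of neutrophil markers, Clec7a was at 8.82 to 29.3 CPM in A. faecalis wounds and 7.18 to 11.9 CPM in S. aureus wounds, with overlap. The neutrophil sums differ so much between the bacteria that the other 38 members all lay higher with A. faecalis on that scale, Tlr4 included. The same sums raise the Clec7a ratio there (A. faecalis mean over S. aureus mean 1.78), so nothing is read from that scale about any member.

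**Figure D4:**
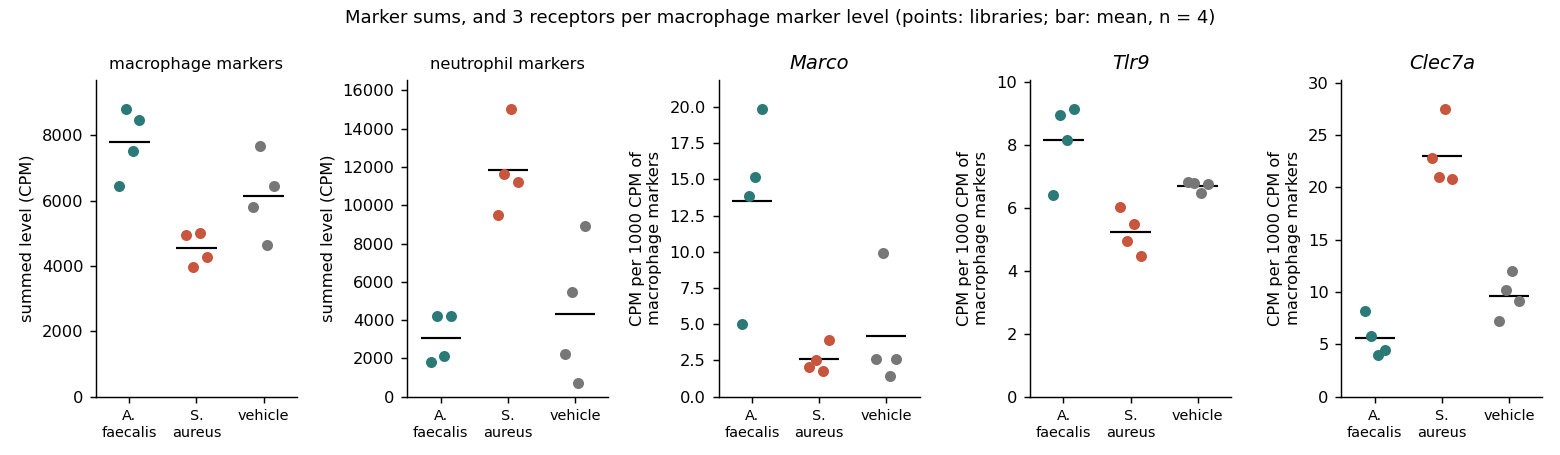
Summed CPM of 12 macrophage and 12 neutrophil markers, and Marco, Tlr9 and Clec7a in CPM per 1000 CPM of macrophage markers, in every library (points) with means of 4 (bars), from left to right for A. faecalis, S. aureus and vehicle. The macrophage sums of A. faecalis lie above those of S. aureus and the neutrophil sums below, and the 3 receptors are among 22 of 39 members without overlap between the bacteria on the ratio scale, Marco and Tlr9 higher and Clec7a lower with A. faecalis. The share of all genes on that scale was not counted.

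The feedback regulators were not called, but the ratios of Nfkbiz to Irak3 and to Tnfaip3 within a library were steady within each group. Irak3 (IRAK-M), which blocks IRAK signalling, was at 191, 492, 309 and 495 CPM with A. faecalis, 141, 182, 206 and 169 CPM with S. aureus and 153, 312, 55.3 and 423 CPM with vehicle. Tnfaip3 (A20), a ubiquitin-editing inhibitor of NF-kB, was at 210.0, 536, 299 and 495 CPM with A. faecalis, 145, 234, 306 and 203 CPM with S. aureus and 141, 388, 52.5 and 418 CPM with vehicle. Nfkbiz, the nuclear co-activator IkB-zeta, was at 152, 339, 179 and 319 CPM with A. faecalis, 335, 409.7, 613 and 406 CPM with S. aureus and 154, 339, 52.2 and 455 CPM with vehicle. Each had overlapping groups, and none was called between the bacteria (log2 fold changes of 1.09 at adjusted p = 0.174 for Irak3, 0.79 at adjusted p = 0.368 for Tnfaip3 and -0.84 at adjusted p = 0.323 for Nfkbiz). Nfkbia, the IkB-alpha gene, was at 284 to 599 CPM with A. faecalis, 350.3 to 716 CPM with S. aureus and 102 to 650.1 CPM with vehicle.

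Divided by Irak3 or by Tnfaip3 within a library, Nfkbiz separated the groups. No other pair among the feedback regulators separated all 3 groups. Nfkbiz over Irak3 was 0.795, 0.689, 0.578 and 0.645 with A. faecalis, 2.38, 2.25, 2.97 and 2.40 with S. aureus and 1.0, 1.09, 0.944 and 1.08 with vehicle. Nfkbiz over Tnfaip3 was 0.723, 0.632, 0.599 and 0.644 with A. faecalis, 2.30, 1.75, 2.00 and 1.99 with S. aureus and 1.09, 0.873, 0.995 and 1.09 with vehicle. Both ratios were lowest with A. faecalis, highest with S. aureus and between them with vehicle, with no overlap among the 3 groups, and vehicle replicate 3, the lowest vehicle library for all of these genes, had a ratio close to those of the other vehicle libraries. Such ratios do not depend on library scaling. They were chosen after the values were seen, from 741 pairs of members, of which 8 (1.08%) separated all 3 groups in this way, so they are given as a description without a test. No single member separated the 3 groups.

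**Figure D5:**
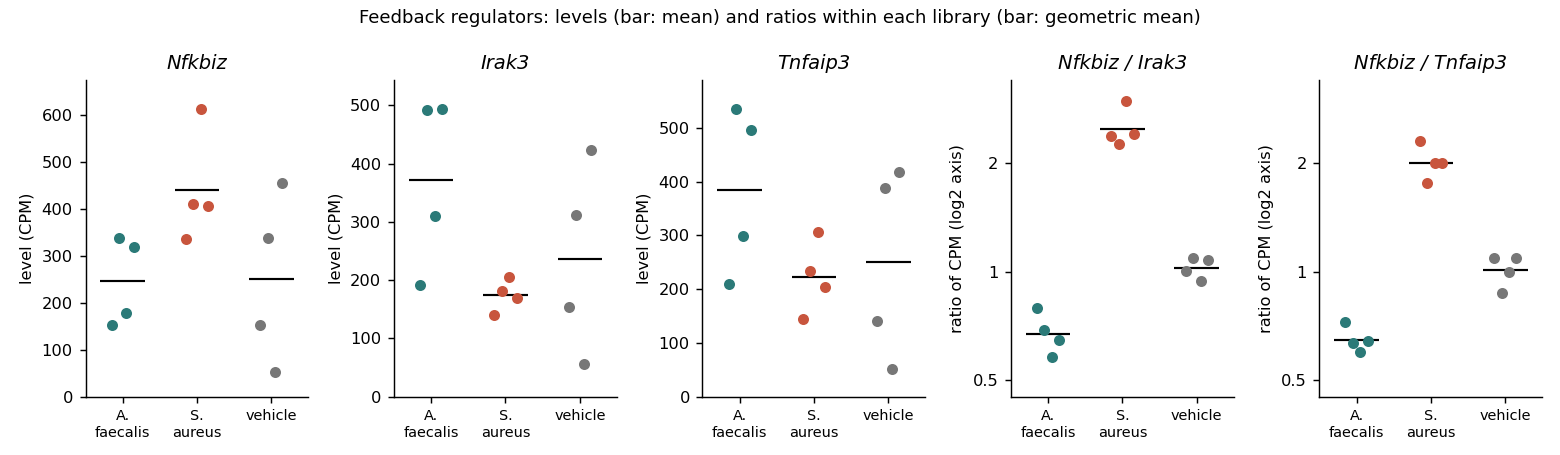
Nfkbiz, Irak3 and Tnfaip3 in CPM in every library (points) with means of 4 (bars), and the ratios of Nfkbiz to Irak3 and to Tnfaip3 on a log2 axis with geometric means (bars), for A. faecalis, S. aureus and vehicle from left to right. The 3 levels overlap among groups, and the ratios do not, the S. aureus ratios lying highest and the A. faecalis ratios lowest.

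Other genes of these pathways were read from 7 lists of 122 genes, of which 121 were tested. For A. faecalis against vehicle 0 were called by edgeR; for S. aureus against vehicle 6 were higher and 5 lower (9.09%, all genes 6.84%); between A. faecalis and S. aureus 14 were higher and 10 lower with A. faecalis (19.8%, all genes 12.7%). Some of those called between the bacteria are known partners of members. Unc93b1, the chaperone that carries TLR9 and its relatives to endosomes, averaged 315 ± 42.2 CPM in A. faecalis wounds and 192 ± 17.9 CPM in S. aureus wounds (log2 fold change 0.71 ± 0.14 SE, edgeR adjusted p = 0.00663). Naip1, in mouse the NLRC4 partner for the secretion needle protein, averaged 3.79 ± 1.30 CPM in A. faecalis wounds and 1.21 ± 0.0448 CPM in S. aureus wounds (log2 fold change 1.65 ± 0.27 SE, edgeR adjusted p = 0.00359). Ticam2 (TRAM), the adaptor that links TRIF to TLR4, averaged 32.6 ± 5.84 CPM in A. faecalis wounds and 18.8 ± 1.76 CPM in S. aureus wounds (log2 fold change 0.80 ± 0.14 SE, edgeR adjusted p = 0.00408).

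In the list of other Toll-like receptor machinery (23 genes) 3 were higher and 0 lower with A. faecalis than with S. aureus. That is 13% called, near the 12.7% of all genes (5.06% higher, 7.62% lower). The third besides Unc93b1 and Ticam2 was the kinase Ikbke (log2 fold change 2.52 ± 0.51 SE, edgeR adjusted p = 0.00928). Of the 12 NF-kB kinases, subunits and other IkB proteins, 1 was higher (8.33% called, all genes 12.7%), the scaffold Ikbkg or NEMO (log2 fold change 0.51 ± 0.11 SE, edgeR adjusted p = 0.0121), and 0 were called against vehicle. Of 14 other negative regulators 2 were higher and 2 lower (28.6% called, all genes 12.7%). Those higher were the A20-binding Tnip3 (log2 fold change 1.98 ± 0.31 SE, edgeR adjusted p = 0.00284) and the deubiquitinase Otulin (log2 fold change 0.36 ± 0.10 SE, edgeR adjusted p = 0.0384). Those lower were the cytokine signalling inhibitor Socs1 (log2 fold change -1.25 ± 0.29 SE, edgeR adjusted p = 0.0175) and the interleukin-33 receptor Il1rl1 (log2 fold change -0.65 ± 0.12 SE, edgeR adjusted p = 0.0061). Tnip3 also fell with S. aureus against vehicle (log2 fold change -1.64 ± 0.31 SE, edgeR adjusted p = 0.0155), and Socs1 and Il1rl1 rose (1.09 and 0.56, adjusted p = 0.0469 and 0.0247).

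Of 20 other inflammasome genes 4 were higher and 2 lower with A. faecalis than with S. aureus (30% called, all genes 12.7%). Besides Naip1 these included Il18, a cytokine that caspase-1 matures (log2 fold change 1.05 ± 0.27 SE, edgeR adjusted p = 0.0258), and Ninj1, which ruptures the membrane of dying cells (log2 fold change 0.80 ± 0.17 SE, edgeR adjusted p = 0.0122), both higher, and the epidermal gasdermin Gsdma, which was lower (log2 fold change -1.39 ± 0.30 SE, edgeR adjusted p = 0.0126). Of 9 nucleic acid sensors 3 were called (33.3%, all genes 12.7%), and all 3 were lower with A. faecalis. They were Ddx58 (RIG-I, log2 fold change -0.43 ± 0.09 SE, edgeR adjusted p = 0.00894), Zbp1 (log2 fold change -1.09 ± 0.27 SE, edgeR adjusted p = 0.0217) and Tmem173 (STING, log2 fold change -0.33 ± 0.10 SE, edgeR adjusted p = 0.0496). STING also rose with S. aureus against vehicle (log2 fold change 0.53 ± 0.10 SE, edgeR adjusted p = 0.0154).

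Of 27 other lectin, peptidoglycan and formyl peptide receptors tested, 3 were higher and 3 lower with A. faecalis than with S. aureus (22.2% called, all genes 12.7%). Those higher were the myeloid lectins Clec4a1, Clec4a2 and Clec4a3, close paralogs whose reads are hard to divide, with Clec4a3 averaging 91.8 ± 20.1 CPM in A. faecalis wounds and 33.3 ± 5.41 CPM in S. aureus wounds (log2 fold change 1.46 ± 0.20 SE, edgeR adjusted p = 0.00169). Those lower included Pglyrp4, an epidermal peptidoglycan recognition protein, averaging 2.66 ± 0.696 CPM in A. faecalis wounds and 11.5 ± 2.51 CPM in S. aureus wounds (log2 fold change -2.12 ± 0.34 SE, edgeR adjusted p = 0.00322), and the macrophage lectin Cd209f (log2 fold change -0.89 ± 0.14 SE, edgeR adjusted p = 0.00273). Pglyrp4 rose with S. aureus against vehicle (log2 fold change 1.27 ± 0.33 SE, edgeR adjusted p = 0.0422), and Clec4a3 fell (log2 fold change -0.93 ± 0.20 SE, edgeR adjusted p = 0.0241). Of 16 other scavenger and opsonin receptors 1 was called between the bacteria (6.25%, all genes 12.7%). It was Cd163, a haemoglobin scavenger receptor of macrophages, higher with A. faecalis, averaging 1024 ± 98.1 CPM in A. faecalis wounds and 343 ± 55.1 CPM in S. aureus wounds (log2 fold change 1.58 ± 0.34 SE, edgeR adjusted p = 0.0114). The complement receptor C3ar1 fell with S. aureus against vehicle (log2 fold change -0.65 ± 0.16 SE, edgeR adjusted p = 0.038). Means above are given with SD over 4 libraries. Of the list genes, Cd163, Cd68, Mrc1 and Fcgr1 are also on the macrophage marker list, and how far the list counts follow the marker sums was not tested.

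Leaving out vehicle replicate 3 raised the count of members called between the bacteria to 12, against 6 with all libraries, and all 6 were still called. The count of all genes called rose too, to 3457 against 2310 with all libraries. The 6 members that were added were Aim2, Pycard, Clec4n, Msr1 and Irak3, higher with A. faecalis than with S. aureus, and Tirap, lower (adjusted p 0.0288 to 0.0484). With only the 2 groups compared, a fit that holds no vehicle library, 13 members were called, and the 6 added here were among them. In the main test all groups share an estimate of the spread between libraries, to which the vehicle libraries contribute. The part of that shared estimate in the added calls was not tested. Marco, Tlr9, Clec7a and Irak1 were called between the bacteria in each of 20 alternative fits, with log2 fold changes of 2.96 to 3.54 for Marco, 1.32 to 1.58 for Tlr9, -1.43 to -1.14 for Clec7a and 0.38 to 0.48 for Irak1.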

How the data were processed

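For 12 libraries the authors deposited estimated counts per gene symbol. The submitters' processing notes name kallisto 0.48.0, GRCm39, FastQC 0.12.1, R 4.1.3 and DESeq2 1.34.0. Strand setting and the way from transcripts to genes are not given in the sources used here; reads shared by paralogs or overlapping genes are therefore uncertain. One entry had no gene name and took 0.00909% to 0.0151% of each library; it was left out.

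Estimated counts were rounded to whole numbers and tested with edgeR 4.0.16 in R 4.3.3: 1 mean per group over 12 libraries, TMM scaling, filterByExpr (minimum count 10, minimum total 15; 18218 genes kept), robust two-sided quasi-likelihood test, Benjamini-Hochberg adjustment. Each log2 fold change is followed by its SE. Groups follow the labels' treatment field; the titles of the S. aureus libraries carry another abbreviation, ARM, which no source used here explains. Each library is 1 mouse per the series design text. Libraries of a group differed by 28.0 to 459.6 chi-square units per degree of freedom, so no library was counted as a repeat of another. The test was checked on simulated data. Transcript lengths came from GENCODE M21, promoters from RefSeq (GRCm38.p6). Replicate numbers are shared by the groups, and the labels give only a number. Deviations of same-numbered A. faecalis and vehicle libraries correlated at 0.148 to 0.335 in 4 pairs, all over 0.1. Differently numbered ones reached 0.403, and same-numbered pairs with S. aureus were not all over 0.1. The main test used no pairing, and the replicate number entered only as a block among the alternatives. The block changed no member call of A. faecalis against vehicle. Alternatives were DESeq2 1.42.0, limma-voom (limma 3.58.1), other scalings and filters, pairwise fits, the replicate block and each library left out. Members and lists were chosen with earlier results of these data known; all members are named, list genes by smallest adjusted p, up to 4 per list.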

Additional observations from a re-analysis of the deposited data

Results flagged for a closer look

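In 117 groups of 4 libraries (39 members in 3 groups), a single library stood far from the others in 2, where chance alone gives about 1 in 20 by Dixon's test. Marco in vehicle replicate 2 was at 76.4 CPM, against 6.70 to 17.0 CPM in the other vehicle libraries. Tlr6 in S. aureus replicate 1 was at 13.5 CPM, against 17.3 to 17.9 CPM in the other S. aureus libraries.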

How the results depend on the processing

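Over 20 alternatives a comparison, 2286 of 2340 member log2 fold changes stayed on the same side of the threshold, 29 lost a call, 25 gained one and 0 were reversed; in 72 cases an uncalled value changed sign. For A. faecalis against vehicle 0 members were called in any fit, while the count of all genes, 2, became 120 with DESeq2 and 2 to 10 with 1 library left out. For S. aureus against vehicle the member count of 1 became 3 with DESeq2, 2 with limma-voom, 0 without a filter, 0 with only the 2 groups and 0 to 2 with 1 library left out; the count of all genes, 1246, became 2876 with DESeq2, 350 with only the 2 groups and 260 to 1750 with 1 library left out. Between A. faecalis and S. aureus the member count of 6 became 13 with only the 2 groups and 4 to 12 with 1 library left out. That of all genes, 2310, became 3474 with DESeq2, 3459 with only the 2 groups and 1313 to 3457 with 1 library left out. The split of all genes called with S. aureus against vehicle, 705 higher and 541 lower, was 619 and 679 under upper-quartile scaling; between the bacteria it was 922 higher and 1388 lower, and 1124 and 1211 under that scaling. With the replicate block 0 members were called for A. faecalis against vehicle. Between the bacteria 6 members were again called, 5 of them the same, with Ly96 giving way to Tirap. For S. aureus against vehicle Tirap was called in place of Clec7a. The same-numbered pairs that hold an S. aureus library did not all deviate together, while those of A. faecalis with vehicle did. The labels do not say what the number marks, so whether same-numbered libraries belong together is not known. The cause of these changes was not tested. The lowest counts of all genes came without S. aureus replicate 3 in both comparisons that hold S. aureus. The count between the bacteria also differed over 1.5-fold without S. aureus replicate 4 or any of A. faecalis replicates 2 to 4, and that of S. aureus against vehicle without S. aureus replicates 2 or 4, vehicle replicate 1 or A. faecalis replicate 3. The 2 genes of A. faecalis against vehicle became 10 without vehicle replicate 2 and 7 without vehicle replicate 4. No member was at 0 in any library, so depth set no limit of detection here.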
